A study of Mus musculus with 4 samples.

Results

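Solute carriers are membrane transport proteins that move ions, neurotransmitters, amino acids, sugars, metals and metabolites across the plasma membrane and the membranes of organelles. Their genes are named Slc, with a number for the family and a letter and number for the member. In a neuron, some fill synaptic vesicles or clear transmitter from the synapse, some set the chloride and bicarbonate gradients that inhibitory synapses work against, and the Slc25 family exchanges nucleotides, phosphate and amino acids across the inner mitochondrial membrane. Dendrites hold long mitochondria and many synapses, so the 3′ ends of carrier mRNAs in that compartment bear on which of these proteins could be made there.

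The members were the rows of a polyA site table whose gene name starts with Slc and a digit, leaving out Slc8a1 to Slc8a3, Slc11a2, Slc1a2 and Slc1a3. This gave 133 of 9297 sites, 114 of 7202 gene names and 297 of 34672 tags. The exclusions removed 11 sites with 4 names. All 4 libraries belonged to 1 group, CA1 neuropil dissected from hippocampal slices of C57BL/6 mice of the genotype Camk2a-Cre x Pabpc1-cTag, without a treatment. In these mice Cre, driven by the Camk2a promoter of excitatory neurons, switches on a GFP tag on the polyA-binding protein Pabpc1, and RNA crosslinked to that protein by ultraviolet light was purified (cTag-PAPERCLIP). Each library pooled several mice, and the study's methods describe the collection for adult mice without an exact age for this experiment. A tag is a sequenced fragment that marks the 3′ end of an mRNA, so tag counts do not grow with transcript length. Numbers of tags say nothing of whether more cells carried an mRNA or each cell carried more of it. Slc9a3r1 fits the naming rule but encodes an adaptor protein and not a carrier.

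The libraries held between 5947 and 16017 tags, and replicate 1 alone had more than 6609. Markers of the tagged cells were listed at 25.7 to 55.8 tags per 10,000 tags of the library (5 of 6 pyramidal neuron genes, with Camk2a itself not listed under its name). Camk2n1 alone held 85 of their 144 tags. Markers of other cells were listed too. All 4 oligodendrocyte genes summed to 13.1 to 51.4 tags per 10,000 with Mbp highest, and all 6 astrocyte genes to 4.92 to 24.4 with Slc1a2 highest. The interneuron genes, 4 of 6 listed, summed to 3.03 to 24.6 with Npy highest and Gad2 and Slc32a1 not listed. Of 3 blood genes 2 were listed, at 1.87 to 97.5, with Hbb-b1 holding 96 of 97 tags. At most 1.68 was reached by 1 of 3 microglial genes and at most 0.624 by 1 of 3 endothelial genes. The part of these RNAs in the carrier counts was not tested.

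Sequences are shown first for the sites seen in every library, the main site of Slc4a10, both pairs of recurring sites in 1 gene and the Slc17a7 3′ end. All of these lie at a polyA signal, the hexamer that directs cleavage of the pre-mRNA. The site named Slc38a8, with 6 tags, has none and is described with the sites outside their named gene. Each line gives 30 bases of the GRCm38 (mm10) reference on the strand of the gene, 5′ to 3′, beginning 4 bases before the hexamer AATAAA or ATTAAA nearest to the site, with the hexamer in capitals.
Slc25a23 (chr17:57043706-57043735, minus strand): aaagAATAAAttttctaagctattactgtt
Slc25a22 (chr7:141429746-141429775, minus strand): aaaaAATAAAtaaatattctaaatagatgc
Slc12a5 (chr2:164999698-164999727, plus strand): atgcAATAAAaataattttattacaccctt
Slc4a10 (chr2:62326706-62326735, plus strand): tggaAATAAAtatttatcctacctactttt
Slc25a5 (chrX:36798784-36798813, plus strand): aagaAATAAAaatacccaaaaccagttttg
Slc7a8 (chr14:54722207-54722236, minus strand): atgtAATAAAattttaaatggagatggagt
Slc22a17 (chr14:54906731-54906760, minus strand): tttgAATAAAtgagcatatcatagcctgga
Slc2a3 (chr6:122727817-122727846, minus strand): ttgaAATAAAacttctgaatgtatgtgtca
Slc6a17 (chr3:107467544-107467573, minus strand): gtacAATAAAgtgtctgttcttagcaccct
Slc25a4, distal (chr8:46207167-46207196, minus strand): cattAATAAAgactactcaatacactttat
Slc25a4, proximal (chr8:46207379-46207408, minus strand): aggaAATAAAacaaaaaaaagagacagatc
Slc25a51, distal (chr4:45395919-45395948, minus strand): cgttATTAAAagtagctaaacacaaagctt
Slc25a51, proximal (chr4:45396062-45396091, minus strand): tataAATAAAtgcatatcaaaagcttgaat
Slc17a7, listed as Mir7055 (chr7:45176114-45176143, plus strand): tcccAATAAAcgctctggtgtacggatcag
Every site printed here lay in the annotated 3′UTR of its gene, and each run of letters occurred once on the assembled chromosomes. The hexamer is ATTAAA at the distal site of Slc25a51 and AATAAA at the others.

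Carrier 3′ ends were a small share of the neuropil table. The 4 libraries held 127, 45, 64 and 61 carrier tags, which is 0.793%, 0.681%, 1.08% and 1.00% of their tags (0.888% ± 0.183, SD, n = 4). The 95% Wilson intervals were 0.667% to 0.943%, 0.509% to 0.910%, 0.844% to 1.37% and 0.780% to 1.28% for replicates 1 to 4, and all of them overlapped. Without Slc25a23, described next, the shares were 0.643%, 0.514%, 1.06% and 0.967%, and the intervals of replicates 1 (0.531% to 0.779%) and 2 (0.368% to 0.718%) lay below that of replicate 3 (0.8289% to 1.35%). The interval of replicate 2 also lay below that of replicate 4 (0.751% to 1.25%). Library totals include tags at sites resembling the short noncoding RNA Bc1, which were 32.9%, 11.8%, 2.59% and 2.07% in replicates 1 to 4. No carrier site was Bc1-like, so these tags lower the carrier shares, most of all in replicate 1. Without them in the totals the mean carrier share was 1.02%, and the intervals were not recomputed that way. Intervals cover counting error only, since PCR can copy 1 molecule into several tags. By gene, 112 of 365 protein-coding carrier genes that the GENCODE vM21 annotation lists were in the table (30.7%), against 6325 of 21559 other protein-coding genes (29.3%). Counts per gene were low. A single tag was all there was for 64 of the 114 genes, 34 had 2 or 3 tags, 16 had at least 4 and 6 had at least 10.

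The mitochondrial carriers of the Slc25 family had the most tags of any class. They had 96 tags (47, 22, 12 and 15 in replicates 1 to 4), 32.3% of all carrier tags and 26.9 ± 5.69 per 10,000 (SD, n = 4). By genes listed they were not first, with 18 of 47 annotated genes (38.3%) against 18 of 32 metal carriers (56.2%) and 4 of 6 calcium and potassium exchangers (66.7%). A gene counts as listed by name even where its only site lay outside the gene. Such genes were Slc24a1 and Slc24a4 among the exchangers, Slc30a2, Slc39a10 and Slc40a1 among metal carriers, and Slc25a29 and Slc25a38 among mitochondrial carriers. Slc25a23, a calcium-regulated carrier that exchanges ATP-magnesium for phosphate, alone had 38 tags. Without it the class kept 58 tags (23, 11, 11 and 13), or 17.7 ± 2.94 per 10,000, and was above every other class in replicates 1, 2 and 4. In replicate 3 it was level with the metal carriers and 1 tag below the amino acid carriers, whose count there includes 3 tags at the site named Slc38a8.

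Slc25a23 had 24, 11, 1 and 2 tags at its single site, 29 bases before the annotated end of the gene. Scaled to library size this is 15.0, 16.6, 1.68 and 3.28 per 10,000, so replicates 1 and 2 were high, replicates 3 and 4 were low, and the pairs did not overlap. The exact multinomial test over library totals gave p = 0.00639 and an adjusted p of 0.0190 over the 533 genes with at least 10 tags. The test sets libraries against counting error alone and takes each tag as a separate molecule, which PCR copies are not. Of those genes 218 (40.9%) passed the same test, so unevenness between libraries was common in the table, and Slc25a23 was 1 of the 6 carriers tested. The call was lost in the same exact test without replicate 3 (adjusted p = 0.111) or without replicate 4 (adjusted p = 0.0627). Replicates 1 and 2 also held the larger numbers of oligodendrocyte marker tags (44, 34, 11 and 8) and astrocyte marker tags (39, 9, 6 and 3) and the larger shares of tags at sites resembling the short noncoding RNA Bc1 (32.9%, 11.8%, 2.59% and 2.07%). None of the carrier sites resembled Bc1, and with library totals taken without the Bc1-like sites Slc25a23 passed the same exact test (adjusted p = 0.00204). The part of oligodendrocyte and astrocyte RNA in its counts was not tested.

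The next mitochondrial carriers were spread over the libraries. Slc25a22, a glutamate carrier whose loss is known from early infantile epilepsy, had 5, 1, 2 and 4 tags. Slc25a5 and Slc25a4, both ADP/ATP translocases that export ATP to the cytosol, had 3, 4, 1 and 2 tags and 3, 2, 1 and 0 tags. Slc25a51, the mitochondrial NAD carrier, had 3, 1, 1 and 1 tags, and its scaled counts varied least among the genes with at least 4 tags (1.68 ± 0.149 per 10,000). This rests on single tags in replicates 2 to 4, and that of replicate 2 lay in a noncoding exon with no hexamer within 50 bases. Slc25a3 imports the phosphate for ATP synthesis and had 2, 1, 2 and 0 tags. Unevenness did not pass for Slc25a22 (adjusted p = 0.606) or Slc25a5 (adjusted p = 0.513) in the exact multinomial test. Slc25a12, an aspartate-glutamate carrier of the malate-aspartate shuttle, Slc25a18, a glutamate carrier known mainly from astrocytes, and Slc25a46, a protein of the outer membrane, had 3 tags each.

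**Figure D1:**
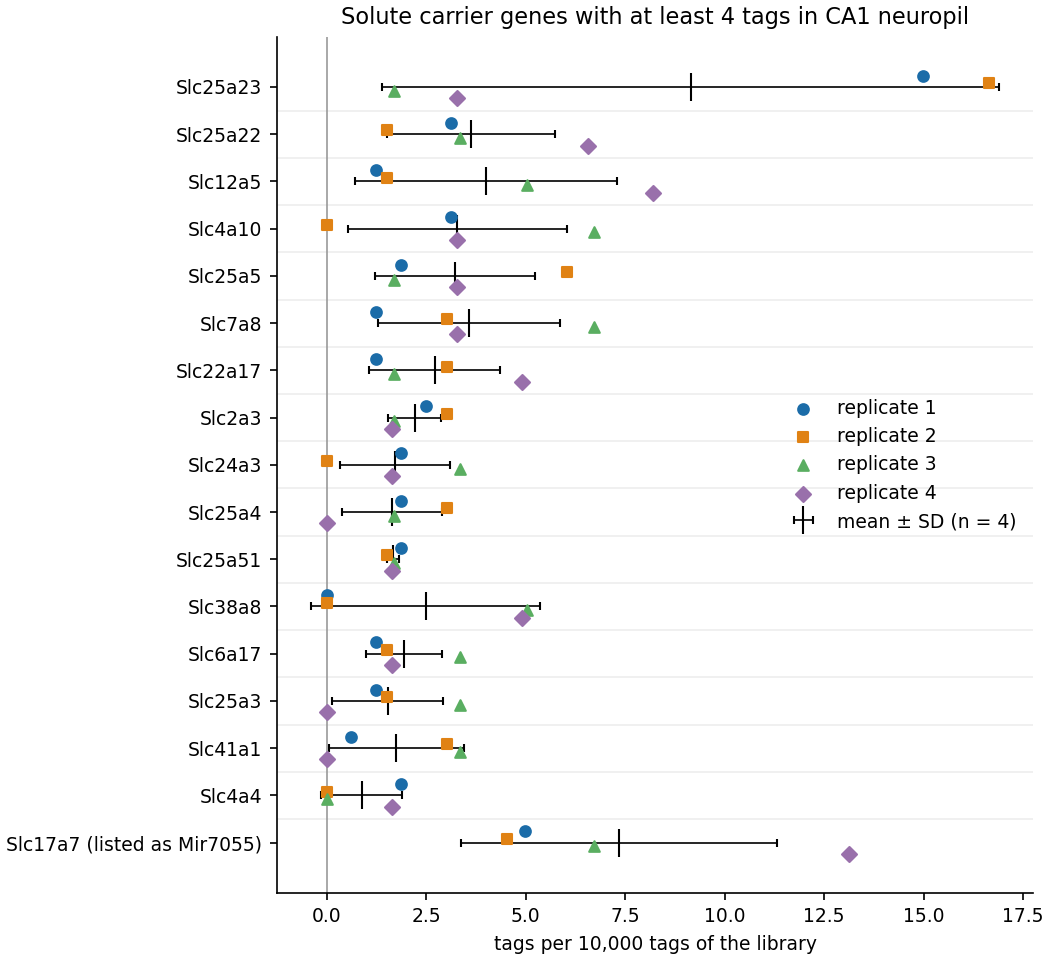
Tags per 10,000 tags of the library (x axis) for the 16 member genes with at least 4 tags and for the Slc17a7 3′ end that the table lists as Mir7055. Each marker is 1 of 4 libraries, vertical ticks are means and bars are ± 1 SD (n = 4); Slc25a23 stands at 15.0 and 16.6 in replicates 1 and 2 and at 1.68 and 3.28 in replicates 3 and 4, while Slc38a8 is at 0 in replicates 1 and 2.

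Among carriers of transmitters, the mark of a glutamatergic neuron was there but under another name. Slc17a7 encodes the vesicular glutamate transporter of hippocampal pyramidal neurons and was not listed under its own symbol. A site at position 45176120 on the plus strand of chromosome 7 lay in the Slc17a7 3′UTR and carried the name Mir7055, a microRNA gene. It had 8, 3, 4 and 8 tags, or 5.0, 4.54, 6.73 and 13.1 per 10,000 (7.34 ± 3.96, SD, n = 4), with replicate 4 highest and tags in every library. Only Slc25a23 among the members had more tags. Its unevenness over libraries did not pass (exact multinomial test, p = 0.179, adjusted p = 0.278). The site is no member by the naming rule and enters none of the counts of members.

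Other vesicular and plasma membrane transmitter carriers had few tags. By table names, which leave out the 23 tags of the Slc17a7 3′ end, the vesicular class had 3 genes listed of 14 and 5 tags, in replicates 1 and 3. Slc17a6 and Slc32a1, the vesicular carriers of other glutamatergic and of inhibitory neurons, were not listed. The Slc6 family had 7 of 21 genes listed (33.3%, near the share of all carriers), 4 of them in more than 1 library, and 16 tags (6, 3, 5 and 2). Slc6a17, which loads neutral amino acids into synaptic vesicles, had 2, 1, 2 and 1 tags and so was seen in every library. Slc1a1, the neuronal glutamate transporter, and Slc6a8, the creatine transporter, were not listed.

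Carriers of chloride, bicarbonate and protons had 11 of 45 genes listed and 35 tags (13, 4, 8 and 10). Slc12a5 is the potassium-chloride cotransporter KCC2, which keeps chloride low in mature neurons so that GABA inhibits them. It had 2, 1, 3 and 5 tags, or 1.25, 1.51, 5.05 and 8.20 per 10,000, with replicates 3 and 4 above replicates 1 and 2. The exact multinomial test gave p = 0.0373 but an adjusted p of 0.0812. Slc12a2, which loads chloride into immature neurons and glia, was not listed.

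Slc4a10, a sodium-driven bicarbonate transporter of neurons, had 5, 0, 4 and 2 tags, and Slc4a4, a sodium bicarbonate cotransporter known mainly from astrocytes, had 3, 0, 0 and 1. Neither was seen in replicate 2. The unevenness of Slc4a10 did not pass (exact multinomial test, adjusted p = 0.284).

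Amino acid carriers had 14 of 41 genes and 35 tags (13, 2, 12 and 8). Of these, 6 belong to a site named Slc38a8 that lies far from that gene, and without it the class had 13, 2, 9 and 5 tags. Slc7a8, the light chain of a neutral amino acid exchanger, had 2, 2, 4 and 2 tags in replicates 1 to 4 (adjusted p = 0.298, exact multinomial test). Slc38a2, a sodium-coupled neutral amino acid transporter, and Slc7a14 had 3 tags each. Slc7a5, another light chain, had 2 tags and Slc3a2, the heavy chain that both light chains pair with, had 1.

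Among sugar and monocarboxylate carriers, 13 of 44 genes were listed with 25 tags (11, 3, 5 and 6). Slc2a3, the high-affinity glucose transporter of neurons, had 4, 2, 1 and 1 tags (2.21 ± 0.672 per 10,000), seen in every library. Slc2a1, the glucose transporter of the blood-brain barrier and astrocytes, was not listed.

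The metal carriers had 18 of 32 genes and 30 tags (12, 5, 11 and 2), mostly single tags. Slc41a1, a magnesium transporter, had 1, 2, 2 and 0 tags. Slc30a3, which fills glutamatergic vesicles with zinc, had 1, 0, 2 and 0 tags. Slc30a4, a zinc exporter, and Slc39a9, a zinc importer, had 3 tags each and Slc30a1, the zinc exporter of the plasma membrane, had 1. The 7 listed zinc exporters of the Slc30 family had 5, 0, 6 and 0 tags together, so none in replicates 2 and 4.

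Calcium and potassium exchange was carried by the Slc24 family, with 4 genes and 9 tags. Slc24a3, a potassium-dependent sodium-calcium exchanger, had 3, 0, 2 and 1 tags at 3 sites, 1 of which held 4 of the 6 tags. Slc24a2, its close relative in neurons, had 1 tag, and Slc8b1, the mitochondrial sodium-calcium exchanger, was not listed. Of the remaining classes, Slc22a17, a receptor for the iron-binding protein lipocalin 2, had 2, 2, 1 and 3 tags and so was seen in every library. Slc23a2, the vitamin C transporter of neurons, Slc44a1, a choline transporter, and Slc49a4 had 3 tags each.

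**Figure D2:**
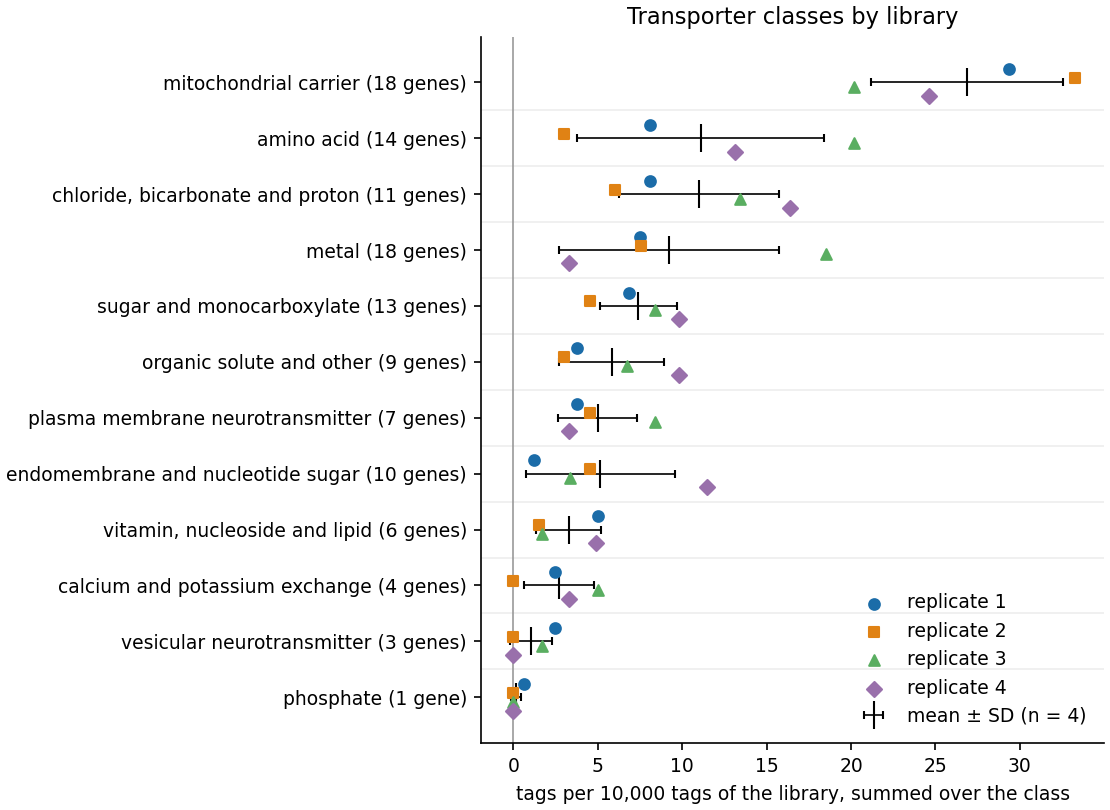
Tags per 10,000 tags of the library summed over the listed genes of each transporter class (x axis), 1 marker a library, with the mean and ± 1 SD (n = 4). Mitochondrial carriers average 26.9 against 11.1 for amino acid carriers and 11.0 for chloride, bicarbonate and proton carriers, while vesicular carriers stay between 0 and 2.50. The vesicular class here leaves out the Slc17a7 3′ end that the table lists as Mir7055, which had 4.54 to 13.1 per 10,000.

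Members known mainly from other cell types were listed at low counts, as most carriers were (1 tag for 64 of the 114 genes). The rule leaves out Slc1a2, the main astrocyte glutamate transporter, which alone had 26 tags. Of 38 carriers chosen as known from astrocytes, interneurons, vessels and meninges, oligodendrocytes, microglia or blood, 15 were listed. This was a larger share than the 112 of 365 annotated carriers (30.7%). The 15 had 27 tags (14, 5, 6 and 2), or 3.28 to 10.1 per 10,000. The 11 astrocyte carriers had 6 listed and 12 tags, of which Slc4a4 had 4. None of the 3 microglial carriers was listed.

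The share of sites that recurred between libraries was lower for carriers than for other genes in each library, but the difference did not pass the test, whose smallest p with 4 libraries is above the threshold. Of the 133 sites, 99 were tagged in 1 library, 21 in 2, 5 in 3 and 8 in every library. The 34 sites that recurred were 25.6% of sites and held 62.6% of the carrier tags, against 34.4% of the other 9164 sites and 78.0% of their tags. The 8 sites seen in every library belong to Slc25a23, Slc25a22, Slc12a5, Slc25a5, Slc7a8, Slc22a17, Slc2a3 and Slc6a17 and hold 103 tags. Of the carrier sites tagged in a library, 41.4%, 55.6%, 51.0% and 47.6% were also tagged in another library, against 52.0%, 62.4%, 55.3% and 63.1% of other sites. The difference was -9.28 ± 4.86 percentage points (SD, n = 4) and was negative in 4 of 4 libraries (exact sign-flip permutation test, two-sided, p = 0.13, the smallest that 4 replicates allow, adjusted p = 0.188 over 3 such tests). It was negative in 3 of 4 libraries when at least 2 tags were asked for in the other libraries (exact p = 0.375) and in 2 of 3 without replicate 1 (exact p = 0.5). The values of the libraries are not independent, since a site shared by libraries counts in each of them. Carrier sites also held fewer tags, 2.23 a site against 3.75, or 3.10 when the Bc1-like sites are left out of the others.

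**Figure D3:**
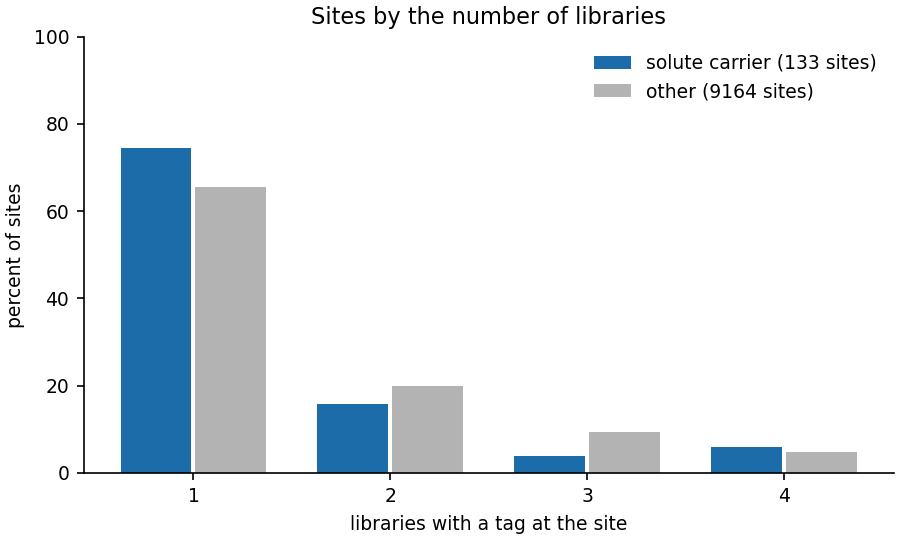
Percent of sites (y axis) by the number of libraries with a tag at the site (x axis), for the 133 carrier sites and the 9164 other sites. The carrier sites stand at 74.4% in 1 library against 65.6% for the others, and at 6.02% against 4.89% in all 4 libraries.

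Most carrier sites lay in a 3′UTR, close to a polyA signal. Of the 133 sites, 99 lay in an annotated 3′UTR, 19 between genes, 9 in an intron and 6 in a noncoding exon, and none in a coding exon. The 3′UTR share was 74.4%, against 76.5% of other sites, and the intron share 6.77% against 5.27%. Of the 34 recurring sites, 32 were in a 3′UTR, against 67 of the 99 tagged in 1 library (94.1% and 67.7%). Other genes had 88.5% and 70.2%. A hexamer AATAAA or ATTAAA lay within 50 bases on either side, on the strand of the site, at 112 sites (84.2%), against 78.2% of the other sites. It was AATAAA at 92 and only ATTAAA at 20. The median start of the hexamer was 2 bases upstream of the listed position. Of the 106 sites inside the gene they are named for, 70 lay within 100 bases of its annotated end, at a median of 23.5 bases before it. The listed position thus lay nearer to the hexamer than to the annotated end. From the end of the coding sequence to the site, the carrier 3′UTRs measured a median of 1730 bases (n = 96, quartiles 864 and 2698), against 1124 for other sites. They ran from 64 bases at the proximal Slc25a4 site to 8707.

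**Figure D4:**
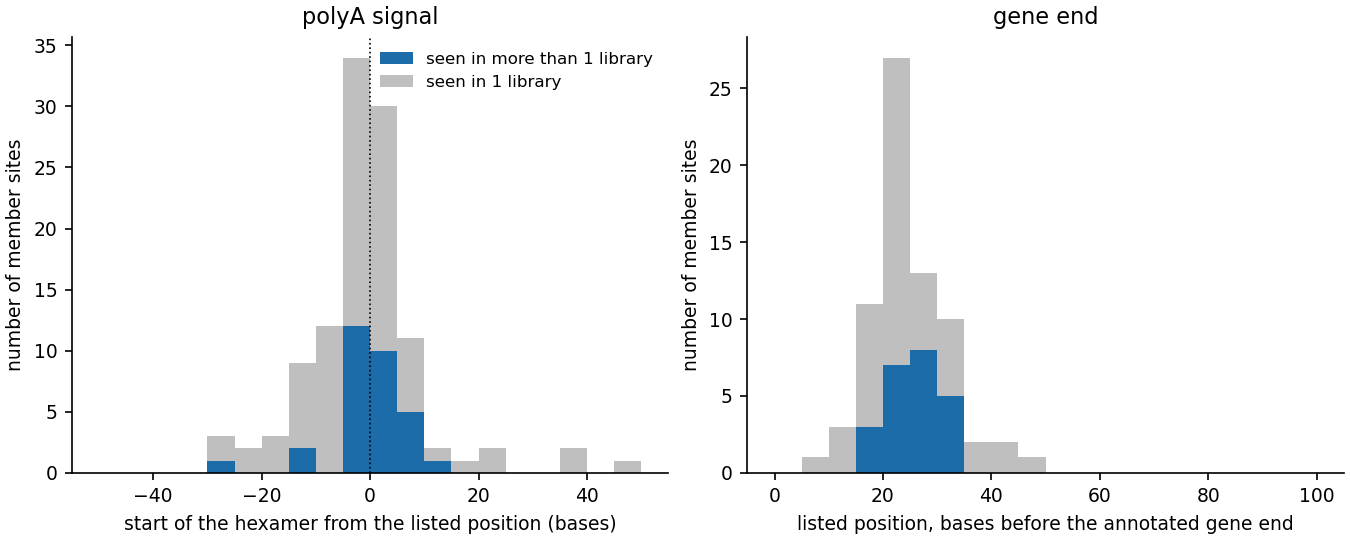
Left, start of the polyA hexamer relative to the listed position in bases (negative is upstream) for the 112 carrier sites with a hexamer. Right, distance of the listed position before the annotated gene end for the 70 sites within 100 bases of it; both y axes count sites, stacked by whether a site was seen in more than 1 library (blue) or in 1 (grey), and the medians are -2 on the left and 23.5 on the right.

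By tags, 86.6%, 86.7%, 84.4% and 82.0% of carrier counts lay in 3′UTRs, against 60.7%, 81.0%, 73.1% and 80.1% for other genes (difference 11.2 ± 10.6 percentage points, higher in 4 of 4 libraries, exact sign-flip permutation test, p = 0.13, adjusted p = 0.188). This difference came to 0.265 percentage points (p = 0.875, same exact test) when the Bc1-like sites were left out of the other genes.

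The name in the table did not always match the gene at the position. Of the carrier sites, 24 with 34 tags lay outside the gene they are named for, all of them past its end. This was 18.0% of carrier sites, against 22.3% of other sites. The distance was under 1 kb at 2 sites, 1 to 10 kb at 7, 10 to 100 kb at 8 and over 100 kb at 7. The site named Slc38a8, an amino acid carrier, lay 1036 kb past that gene, between genes, with no hexamer within 50 bases. It had 0, 0, 3 and 3 tags, so it was seen in replicates 3 and 4 only. The site named Slc2a12, a glucose transporter, with 2 tags, lay 1061 kb past its gene. The pair of sites named Slc10a5 (3 tags) lay in the 3′UTR of Impa1, which encodes inositol monophosphatase. A further 3 sites carried a name that vM21 lacks, among them both sites of Slc49a4. Of its 3 tags, 1 lay in the 3′UTR of Dirc2, an older name of that gene, and 2 lay in a noncoding exon of Gm5963. The annotated gene at the position gave 112 sites, 100 genes and 288 tags, with 106 sites shared by both ways of naming, and a mean share of 0.858% of library tags.

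More than 1 site was listed for 16 of 114 carriers (14.0%), 3 of them with 3 sites, against 1544 of 7088 other gene names (21.8%). The study asked which 3′ ends reach dendrites, and the question here was whether the libraries used the sites of a gene alike. The Fisher-Freeman-Halton exact test could be run for 256 genes of the table, of which 14 (5.47%) passed and 35 had an unadjusted p under 0.05. Slc4a10 was the only carrier with enough tags at more than 1 site. It could not have passed, since its further site held 1 tag and the smallest exact p it could give was 0.182 (the observed p was 0.545, adjusted p = 0.958). Its main site, 23 bases before the gene end, had 5, 0, 3 and 2 tags, and a site in an intron, 89.0 kb before the end, had 1 tag in replicate 3. At the minimum of 10 tags the data therefore hold no informative test of site usage for carriers.

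Slc25a4 and Slc25a51 were the 2 carriers with at least 2 recurring sites. In Slc25a4 the distal site, 274 bases past the coding sequence, had 2, 2, 0 and 0 tags and the proximal site, 64 bases past it, had 1, 0, 1 and 0. In Slc25a51 the distal site had 1, 0, 0 and 1 tags and the proximal site, 3158 bases past the coding sequence, had 2, 0, 1 and 0. Summed over both genes, distal sites had 3, 2, 0 and 1 tags and proximal sites 3, 0, 2 and 0. The log2 ratio of distal to proximal tags, with 0.5 added to each sum, was 0.00, 2.32, -2.32 and 1.58 (0.40 ± 2.06, SD, n = 4, exact sign-flip permutation test, p = 1). In the 213 other genes with such sites it was 0.70 ± 0.36 and above 0 in 4 of 4 libraries. At 11 tags, no preference of the carriers for either end was detectable, and the sign turned to -0.25 without replicate 2.

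Sites in introns of the named gene were all single tags. There were 7 of them, in Slc4a10, Slc24a3, Slc24a2, Slc16a4, Slc2a13, Slc25a46 and Slc35a1, and none was seen in a further library. A hexamer lay within 50 bases at the intron sites of Slc2a13 and Slc35a1. The depth does not show whether any of these is a regularly used short 3′ end.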

How the data were processed

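The 4 libraries were cTag-PAPERCLIP of CA1 neuropil, treated as 1 group of replicates as the labels give them. The authors deposited tag counts, whole numbers that were not normalized, for single-base polyA sites with a strand, a gene name and 1 column a library. The submitters' processing notes name cutadapt, Novoalign and mm10. The study's methods state that sites were clustered with CTK. Whether duplicate tags were collapsed, and how tags matching several places were placed, is not given in the sources used here, and either would change counts. The table's name says that its sites overlap those found in Camk2a-expressing cells, so a gene not listed may still have had tags elsewhere. Sites with a tag in 1 library were kept.

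The members, the classes, the marker lists and the tests were chosen with earlier results of these data known. The genes named were the 25 with the most tags (29 with ties, down to 3 tags), any member passing a test and 22 chosen carriers, of which 8 were not listed. Some of the chosen carriers are not reported here. The genes named for intron sites, recurrence or a position outside the named gene were chosen after their values were seen. Sites were placed in GENCODE vM21 genes on their strand, a 3′UTR taking precedence over a coding exon, then a 5′UTR, then exons of noncoding genes and last introns. Hexamers were searched within 50 bases on either side in the GRCm38.p6 reference of RefSeq, on the strand of the site. A site was Bc1-like when 10 of the 63 words of 12 bases from the first 74 bases of Bc1 lay within 75 bases.

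Unevenness was tested for every gene with at least 10 tags by an exact multinomial test against library totals. Site usage was tested by the Fisher-Freeman-Halton exact test, and differences over replicates by exact sign-flip permutation tests, two-sided. All p-values were adjusted by Benjamini-Hochberg over all tests of their kind, with a threshold of 0.05. The multinomial and site usage tests measure libraries against counting error, which PCR copies understate. The study's methods state that each replicate pooled several mice, and the labels do not tie libraries to mice. The sign-flip p-values measure the spread between these samples, which may be technical. For recurrence the values of the libraries also depend on each other. Tests were checked on simulated data. The analyses used Python 3.11, pandas 2.3.3, numpy 2.4.6 and scipy 1.17.1. The alternatives were other tag minimums, size factors, totals without Bc1-like sites, recurring sites only, names by position, a pseudocount of 1 and the omission of each replicate, and, chosen after seeing the data, the omission of Slc25a23 and of sites outside the named gene.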

Additional observations from a re-analysis of the deposited data

Results flagged for a closer look

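Among 11 values examined over the 4 libraries, 1 stood apart. The total of replicate 1 was 16017 tags, and its gap to the nearest library was 0.934 of the whole range. A single such flag is close to the 0.55 that chance gives over 11 values. Each carrier count was therefore also read per 10,000 tags of its library. None of the tag rates of the 6 carriers with at least 10 tags stood apart in this way.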

How the results depend on the processing

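Of 41 recomputed values, 37 kept their direction and their side of the threshold. This count says little of robustness, since many of the values could not have crossed the threshold. The carrier share has no test and cannot be negative, and the sign-flip tests cannot reach the threshold with 4 libraries or fewer. A kept direction can also hide a large change in size. The 3′UTR difference counts as kept although it fell from 11.2 to 0.265 percentage points without the Bc1-like sites among other genes. The number of unevenly tagged carriers was 1 in the reported setting, 2 with at least 5 tags (Slc25a23 and Slc38a8, where 268 of 1408 genes passed) and 0 to 1 when each replicate was left out. Over all genes, leaving out each replicate moved the unevenly tagged genes from 218 to between 126 and 185, and the genes with uneven site usage from 14 to between 1 and 9, in both cases with fewer tags and fewer genes tested. For site usage no carrier could be tested with at least 20 tags, with recurring sites only, or without replicate 1, 3 or 4. The distal over proximal log2 ratio ran from -0.25 without replicate 2 (Slc25a51 only) to 0.49 without replicate 4 (Slc25a4 only), because each omission removed a gene, and no gene was left without replicate 1 or 3. It was 0.49 over all sites of 16 carriers and 0.25 with a pseudocount of 1. The carrier share stayed between 0.741% and 1.02%, and the mean recurrence difference between -10.4 and -5.66 percentage points, not negative in every library in 2 of these settings. The 3′UTR difference ran from 0.265 without the Bc1-like sites among other genes to 22.9 with names by position, a rule that takes only sites inside a gene. The share without Slc25a23 was 0.796% and with only the sites inside the named gene 0.768%. No paired analysis was possible because the libraries form a single group. Depth limits the comparison of libraries, since 64 of 114 genes had 1 tag, 6 reached the minimum of 10 tags and 15 that of 5.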

Other observations

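Besides Slc17a7, 5 sites lay in the 3′UTR of an annotated carrier gene but carried another gene's name. Slc39a7, a zinc transporter of the endoplasmic reticulum, had 2 tags under the name H2-Ke6, in replicates 1 and 4. Slc43a2, Slc9a9, Slc25a39 and Slc10a3 had 1 tag each, under the names Mir3971, Mir7656, Mir6930 and Gm44504. Of these 6 sites, 4 were named after a microRNA gene, and a hexamer lay within 50 bases at all but the Slc25a39 site. These sites were found after the data were seen.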
